A study of Mus musculus with 12 samples.

Results

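The replication-dependent histone genes of the mouse were examined in LSK cells, the Lin-, Sca-1+, KIT+ fraction of the bone marrow that holds hematopoietic stem cells and multipotent progenitors. Members were all genes of the deposited table whose names follow the older nomenclature of the clustered histones (Hist1 to Hist4, followed by h1, h2a, h2b, h3 or h4), and 70 of 35999 genes met this rule. They comprised 6 H1, 20 H2A, 19 H2B, 12 H3 and 13 H4 genes. By name, 56 belong to the Hist1 cluster on chromosome 13, 10 to Hist2 on chromosome 3, 3 to Hist3 on chromosome 11 and 1 to Hist4 on chromosome 6. Hist1h2aj, Hist1h2al and Hist3h2bb-ps are annotated as pseudogenes.

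The study made 12 RNA libraries from LSK cells, each from a different mouse, with 6 WT and 6 Fancg KO animals by their labels. Fancg encodes a subunit of the Fanconi anemia core complex, which acts in the repair of DNA interstrand crosslinks, and the KO mice carry the Fancg-/- genotype in the whole body. Cells were lineage-depleted, sorted on CD117 and Sca-1, and their mRNA was enriched before library preparation. Neither group received an agent according to the sources used here, which give no age, sex or strain. Libraries are named below by genotype and by the replicate number of their titles, which runs from 2 to 7 in both genotypes. Because replicates are separate mice, p-values refer to the spread between mice together with that of library preparation.

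Replication-dependent histones supply the nucleosomes of newly copied DNA. Their genes lie in clusters and mostly have no intron, and their mRNAs usually end in a conserved stem-loop in place of a poly(A) tail. The stem-loop is bound by SLBP, U7 snRNP and the CPSF3 endonuclease cut the pre-mRNA downstream of it, NPAT drives transcription of the clusters in S phase, and the mRNAs are degraded when DNA synthesis stops. H2A, H2B, H3 and H4 form the nucleosome core, and H1 binds the linker DNA between nucleosomes.

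The 3′ stem-loop, which sets these mRNAs apart from others, was searched in the GENCODE M21 transcripts (GRCm38) as GG, 3 bases, TT, C or T, T, any base, A, 3 bases pairing with the first 3, and CC. An annotated transcript held it in 46 of the 70 members, namely in 4 H1, 11 H2A, 10 H2B, 9 H3 and 12 H4 genes. Some of the remaining members have short annotated transcripts, such as Hist1h4k with 312 bases and Hist1h2bl and Hist1h2bn with 381. A stem-loop past an annotated end was not searched, so these members are not shown to lack it. Of 58725 protein-coding transcripts of other genes, 29 held the stem-loop (0.0494%). The members used 8 forms. The form that opens with GGCTC was found in 34 members, none of them an H4 gene, and GGCCC in 10 and GGTCC in 2, all of them H4 genes. The stem-loops of 8 of the genes described below are given 5′ to 3′ on the strand of the gene, with the 16 bases of the stem-loop in capitals and 4 bases on each side.
Hist1h1c, chr13:23739512-23739527, plus strand: aaaaGGCTCTTTTCAGAGCCacca
Hist1h2ae, chr13:23570668-23570683, minus strand: caaaGGCTCTTTTCAGAGCCattc
Hist2h2aa1, chr3:96246032-96246047, plus strand: aaaaGGCTCTTTTCAGAGCCaccc
Hist1h2bg, chr13:23571843-23571858, plus strand: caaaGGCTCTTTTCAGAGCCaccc
Hist1h2bk, chr13:22036300-22036315, plus strand: caaaGGCTCTTTTAAGAGCCacta
Hist1h3e, chr13:23561903-23561918, minus strand: aaacGGCTCTTTTAAGAGCCacct
Hist1h4d, chr13:23581950-23581965, plus strand: caaaGGCCCTTTTCAGGGCCacta
Hist1h4j, chr13:21735437-21735452, plus strand: taaaGGTCCTTTTCAGGACCacca
All of these lie in the 3′ untranslated region of a gene with 1 annotated transcript of 1 exon.

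RefSeq promoters (GRCm38.p6) were available for 61 members, and 3 short motifs were searched on both strands in the 250 bases upstream of the start (none of them contains another). CCAAT was present in 50 of the 61 promoters (82.0%), against 34.5% of the 27025 promoters in the reference. The H1, H2A and H2B promoters all held it, whereas 3 of 12 H4 promoters did. TATAAA was present in 29 member promoters (47.5%), against 3504 of the 27025. The octamer ATTTGCAT was present in 13 (21.3%, against 1.61%), and these were 7 of 17 H2A and 6 of 16 H2B promoters. A match describes these letters and is not evidence of a bound factor. In 14 cases an H2A and an H2B gene were divergently transcribed from starts 172 to 305 bases apart. The stretches searched for the genes of such a pair can overlap, so the same site can count for both. The octamer between Hist1h2ae and Hist1h2bg was counted in this way, and the motif counts above are not all from separate sequences. The intergenic sequence of 1 of these pairs, Hist1h2ae (minus strand) and Hist1h2bg (plus strand), is shown because these were the 2 members with the highest signal. It spans 175 bases at chr13:23571221-23571395 and is printed on the plus strand, with the motifs in capitals. The 150 bases upstream of an H1 gene and of an H4 gene are given on the strand of the gene for comparison.
Hist1h2ae and Hist1h2bg: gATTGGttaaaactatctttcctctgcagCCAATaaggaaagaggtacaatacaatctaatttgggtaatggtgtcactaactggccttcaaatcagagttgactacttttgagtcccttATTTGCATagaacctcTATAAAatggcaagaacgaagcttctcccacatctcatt
Hist1h1c, chr13:23738657-23738806, plus strand: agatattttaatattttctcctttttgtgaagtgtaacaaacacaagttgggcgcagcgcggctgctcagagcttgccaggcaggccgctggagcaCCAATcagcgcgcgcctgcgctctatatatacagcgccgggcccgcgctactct
Hist1h4d, chr13:23581418-23581567, plus strand: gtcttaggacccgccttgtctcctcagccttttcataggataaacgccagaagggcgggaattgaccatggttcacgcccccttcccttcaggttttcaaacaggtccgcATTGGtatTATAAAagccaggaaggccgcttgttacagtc

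Values are given as deposited and are called signal. They were taken to be kallisto's estimated counts after scaling by a factor for each library, so they are comparable between libraries but are not whole reads. Low values piled up on a step that put the depth at about 1235110 to 2471413 reads per library and the histone signal at about 6761 to 20791 reads. Fancg, the targeted gene, was at 4.76 to 24.1 in the WT libraries and at 4.46 to 14.5 in the KO libraries (two-sided exact permutation p = 0.636), on about 3.16 to 22.3 reads. It therefore did not separate the genotypes, and every direction below rests on the genotype given in the labels. Kit, one of the genes of the sort, was at 283 to 435 in all 12 libraries, while Ly6a, which encodes Sca-1, was at 4.84 to 17.4. Of 10 genes of the LSK gate and of stem or progenitor cells 9 passed the filter, and their sum was 1772 to 2314 in WT and 1422 to 2166 in KO. Genes of other marrow cells were partly present. The 10 erythroid genes summed to 112 to 202 in WT and 123 to 271 in KO, with Hba-a1 at no more than 2.41 and Car2 at 91.8 to 164. The 12 granulocyte and monocyte genes summed to 444 to 2377 in WT and 569 to 2549 in KO, with S100a8 at no more than 1.16 while Mpo ran from 255 to 1650, Elane to 270 and Ctsg to 251. The 7 T lymphoid genes summed to 5.15 to 31.3 in WT and 5.68 to 19.1 in KO, with Cd3e at no more than 0.348. The 6 megakaryocyte genes summed to 45.7 to 89.8 in WT and 48.9 to 255 in KO, with Vwf at 12.5 to 177. Ebf1, a transcription factor of early B-lineage cells, was at 22.6 to 288. The part of these genes' cells in the histone values was not tested. Summed Y-linked signal was 26.6 in WT 3 and 49.7 in KO 7, against 189 to 435 in the other libraries.

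The summed histone signal overlapped between the genotypes, and their means lay closer together than the spread between mice. It was 9048, 9813, 12919, 10911, 14826 and 11349 in WT 2 to WT 7. In KO 2 to KO 7 it was 7292, 5918, 16245, 12753, 12309 and 16540. The lowest and the highest of the 12 libraries, KO 3 and KO 7, were thus both KO, and the WT values lay between those of the KO libraries. Means were 11478 ± 2112 in WT and 11843 ± 4434 in KO (SD, n = 6 each), and the difference of the mean log2 values (KO minus WT) was -0.035. The KO mean was thus the higher one on the linear scale and the lower one on the log2 scale, and the same held for H1, H2B, H3 and H4 below. KO was higher in 3 of the 6 replicate numbers. The larger SD of the KO libraries was not tested. With RNA from whole sorted populations, the number of cells in S phase and the histone mRNA per cell cannot be told apart.

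The genotypes overlapped in each of the 5 classes. H2B genes gave 31.2% of the histone signal, H2A 19.2%, H3 16.7%, H4 16.6% and H1 16.3%, and 88.0% came from the Hist1 cluster. Summed H1 signal was 1852 ± 278 in WT and 1946 ± 718 in KO, a log2 difference of -0.01. Summed H2A signal was 2152 ± 445 and 2329 ± 934 (0.03), H2B 3625 ± 945 and 3643 ± 1488 (-0.07), H3 1919 ± 248 and 1973 ± 773 (-0.05), and H4 1930 ± 302 and 1951 ± 699 (-0.06). H2A was thus the only class with a positive log2 difference of the sums. As a share of the histone signal of its library, H2A was at 17.5% to 19.5% in WT and 17.5% to 20.7% in KO. It was higher in KO in 6 of 6 replicate numbers, whereas each other class was higher in 2 or 3 of 6. For number 2, however, the H2A shares were nearly equal (17.488% in WT and 17.492% in KO). The replicate number is not said to mark a shared litter or day, and the pattern was not tested. Every class was lowest in KO 3, next lowest in KO 2 and then in WT 2, and highest in KO 4 (H2A, H3 and H4) or KO 7 (H1 and H2B).

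**Figure D1:**
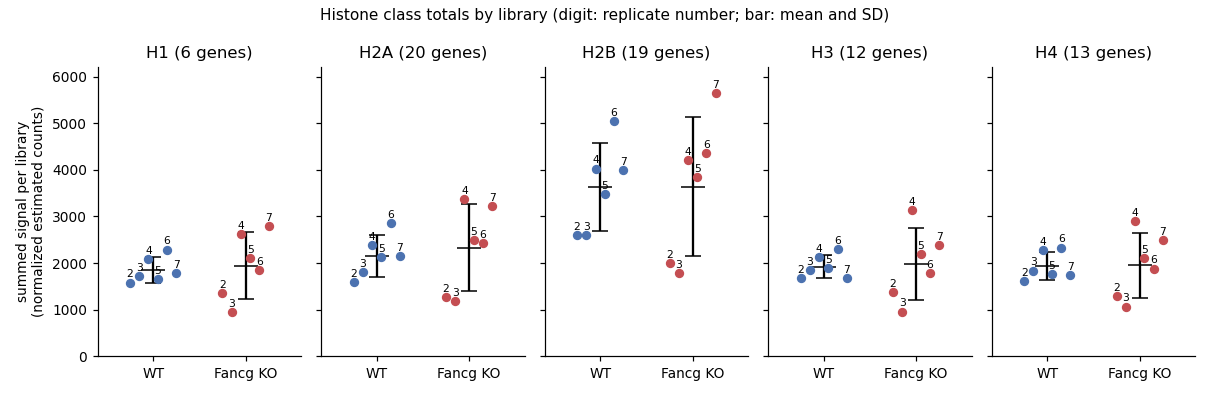
Summed signal (normalized estimated counts, linear axis from 0) of the members of each histone class in the 6 WT (blue) and 6 KO (red) libraries. Points are libraries with their replicate number, and the bar is the mean with its SD. In each class KO 2 and KO 3 lie lowest, KO 4 and KO 7 lie high, and the WT libraries fall between the KO extremes.

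As single genes, 60 members passed the filter (a mean signal of at least 10 over all libraries) that left 8887 genes for testing with limma on log2(signal + 1). They were 5 H1, 15 H2A, 17 H2B, 10 H3 and 13 H4 genes. At an unadjusted p under 0.05, 0 members were higher and 0 were lower in KO, where 1.98% and 1.69% of all genes tested were called. After Benjamini-Hochberg adjustment in limma 0 members passed, as did 0% of all genes, and the smallest adjusted p of a member was 0.9996. No member had groups that did not overlap, against 8 of all genes tested. The log2 fold change lay within 0.5 of 0 in 57 of 60 members, as for 92.9% of all genes. The whole 95% interval lay within 1 of 0 for 49 of the 60. The median SE of the members was 0.292, and differences inside a member's own interval were not excluded.

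The median log2 fold change of the 60 members was -0.07 (0.00 for all genes), with 20 higher and 40 lower in KO. This split depended on single libraries. It was 42 higher and 18 lower without KO 2, also 42 and 18 without KO 3, 10 and 50 without KO 4 and 13 and 47 without KO 7. Without WT 6 it was 29 and 31. With libraries rescaled to the same total it was 31 and 29, but this shifted all genes alike, the median of all genes to 0.08 and that of the members to 0.01, so the members kept about the same distance from the other genes. By class, 2 of 5 H1, 7 of 15 H2A, 3 of 17 H2B, 4 of 10 H3 and 4 of 13 H4 genes had a higher mean log2 value in KO.

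**Figure D2:**
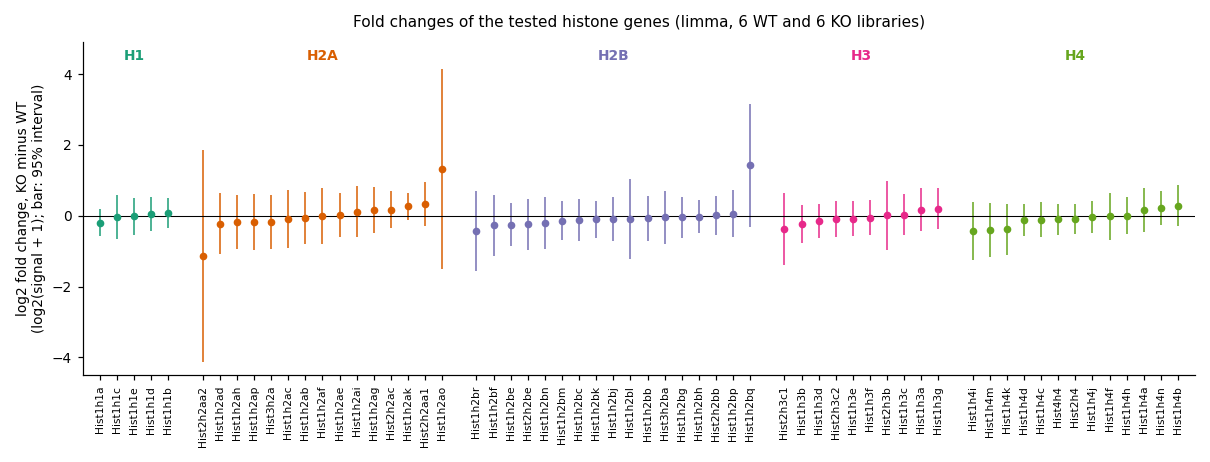
Log2 fold change (KO minus WT, on log2(signal + 1)) of the 60 tested members, ordered within each histone class, with 95% intervals from limma over 6 WT and 6 KO libraries. All intervals include 0, and the widest belong to Hist1h2ao, Hist2h2aa2 and Hist1h2bq.

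Linker histones were represented by 5 tested H1 genes. Hist1h1c, which encodes H1.2 (chr13:23738808-23740367), was the H1 gene with the highest signal. It was at 368, 424, 512, 449, 671 and 512 in WT 2 to WT 7 and at 332, 192, 727, 578, 483 and 828 in KO 2 to KO 7. The KO libraries reached both above and below the WT range, and limma gave a log2 fold change of -0.03 (SE 0.29, adjusted p = 0.9996). Hist1h1d (H1.3) ran from 336 over a median of 410 to 478 in WT and from 225 over 450 to 623 in KO, with a log2 fold change of 0.05. Hist1h1e (H1.4) ran from 330 over 385 to 480 and from 175 over 414 to 609, with -0.02. In all 3 genes the lowest library was KO 3 and the highest was KO 7. Hist1h1t, the testis-specific linker histone, was at 0 in 8 libraries and at no more than 1.35 in the others.

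Among H2A genes Hist1h2ae (chr13:23570517-23571220), which carries the stem-loop and shares the promoter region printed above, had the highest signal. It was at 788, 789, 1244, 1066, 1530 and 1099 in WT 2 to WT 7 and at 603, 527, 1468, 1372, 1286 and 1802 in KO 2 to KO 7. Both groups thus held low and high libraries, and the log2 fold change was 0.02 (95% interval -0.61 to 0.64). Hist2h2aa1 was at 107 to 323 in WT and at 157 to 536 in KO (0.33, 95% interval -0.29 to 0.95), with KO 4 well above the other KO libraries. Hist1h2ac was at 82.5 to 250 and at 46.7 to 264 (-0.09).

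Hist1h2bg (chr13:23571396-23572013), the divergent partner of Hist1h2ae, was the H2B gene with the highest signal. Its values were 698, 732, 956, 907, 1271 and 1042 in WT 2 to WT 7 and 512, 477, 1129, 1010, 1143 and 1543 in KO 2 to KO 7. They followed those of Hist1h2ae from library to library. Both genes varied over 3-fold between libraries (3.42-fold and 3.23-fold from lowest to highest), while the ratio of their signals per kb of longest annotated transcript stayed between 0.926 and 1.19. Ratios in 8 other divergent pairs with both genes tested and above 0 everywhere were less even, for example 0.147 to 0.386 for Hist1h2ac over Hist1h2bc. Members that are not divergent partners were not compared in this way, so an even ratio is not shown to be particular to this pair. Many members varied together, and 37 of the 60 tested had their lowest value in KO 3, as these 2 genes did. The log2 fold change of Hist1h2bg was -0.04 (95% interval -0.62 to 0.54). Hist1h2bk was at 280 to 560 in WT and at 229 to 589 in KO (-0.10). Hist1h2bp was at 210 to 453 and at 119 to 486 (0.06).

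The H3 genes with the highest signal encode the replication-coupled forms of H3. Hist1h3e (chr13:23561534-23562369) was at 318, 393, 519, 439, 472 and 400 in WT 2 to WT 7 and at 273, 219, 583, 525, 378 and 555 in KO 2 to KO 7. KO 2 and KO 3 lay below all WT libraries, and KO 4, KO 5 and KO 7 lay above them (log2 fold change -0.08, 95% interval -0.58 to 0.41). Hist2h3c2 ran from 371 over a median of 409 to 456 in WT, a narrow range, and from 196 over 415 to 682 in KO (-0.09). Hist1h3f ran from 212 over 261 to 392 and from 138 over 299 to 405 (-0.06).

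H4 is encoded by many genes with the same protein product. Hist1h4d (chr13:23581598-23582735) was at 373, 385, 505, 430, 489 and 389 in WT 2 to WT 7 and at 239, 272, 620, 467, 398 and 481 in KO 2 to KO 7. As for H3, KO 2 and KO 3 were the lowest of all libraries and KO 4 the highest (log2 fold change -0.12, 95% interval -0.56 to 0.33). Hist1h4c was at 235 to 408 in WT and at 152 to 412 in KO (-0.11). Hist1h4j was at 213 to 331 and at 147 to 385 (-0.04). Exact permutation tests of the 15 members named in these paragraphs (two-sided, 6 against 6, smallest possible p 0.00216) gave p = 0.383 for Hist2h2aa1 and larger values for the other 14.

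Per kb of the longest annotated transcript, Hist1h2ae and Hist1h2bg had mean signals of 1607 and 1540, and 1 of them was the highest member in every library (Hist1h2ae in 7, Hist1h2bg in 5). The next was Hist1h2bk at 859. Among the tested genes of a class the median was 311 for H1, 116 for H2A, 286 for H2B, 248.5 for H3 and 225 for H4. Single genes ran from 7.48 to 1540 in H2B and from 24.7 to 1607 in H2A. The 7.48 belongs to Hist1h2bq, a near-identical copy of Hist1h2br, and the division of signal between these copies varied between libraries. Transcript lengths are those of GENCODE M21, and the annotation behind the deposited values is not given in the sources used here. The filter removed 10 members. Of these, 6 had a mean signal under 1, among them the testis-specific Hist1h1t, Hist1h2aa and Hist1h2ba, and Hist1h2al and Hist1h2an were listed at 0 in every library. The other 4 (Hist1h3h, Hist1h3i, Hist2h2ab and Hist3h2bb-ps) had means of 4.25 to 8.27, and Hist1h3h and Hist1h3i had the same value in each library.

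The histone share of the library fell into 2 ranges within each genotype. Histone signal made up 0.325% to 0.393% of the library in WT 2, WT 3, KO 2 and KO 3, and 0.652% to 0.841% in the other 8 libraries, with both genotypes on each side. Lars2 alone took 15.6% to 19.0% of the signal in the former 4 and 24.7% to 36.2% in the latter 8. Without the 15 genes with the highest signal the histone share was 0.663% to 0.866% in the 4 libraries and 1.29% to 1.76% in the 8. These 4 libraries were set apart by the histone share itself, so it is only a description that 55 of the 60 tested members had their lowest value in 1 of them, 37 of these in KO 3. The labels give no batch for these libraries, and the part of handling in this pattern was not tested. The library total, by which the share is divided, also differed within WT. It was 2672915 in WT 2 and 2496115 in WT 3, and 1603581 to 1807830 in the other WT libraries. The summed histone signal was less clearly split in WT, at 9813 in WT 3 and 10911 in WT 5.

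The swing between libraries was wider for the replication-dependent histones than for related genes. From lowest to highest library, the summed histone signal differed 2.79-fold. The sum of 11 replication-independent histone variants differed 1.67-fold, that of 25 DNA synthesis genes 1.64-fold, that of 23 histone chaperone and import genes 1.61-fold and that of 21 genes of histone mRNA transcription, processing and decay 1.20-fold. Gene by gene, the median fold between highest and lowest library was 3.81 for the members, 2.05 for the DNA synthesis genes and 2.57 for all genes tested. Some members are near-identical copies, described below, whose division of reads varied between libraries. How far this widened the 3.81 was not tested. KO 3 was the lowest library for the histones, the DNA synthesis genes, the chaperones and the processing genes. KO 2 had rank 2 of 12 from the lowest for the histones, rank 3 for the DNA synthesis genes and rank 10 for the processing genes. These values are descriptions of 12 libraries and carry no test.

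**Figure D3:**
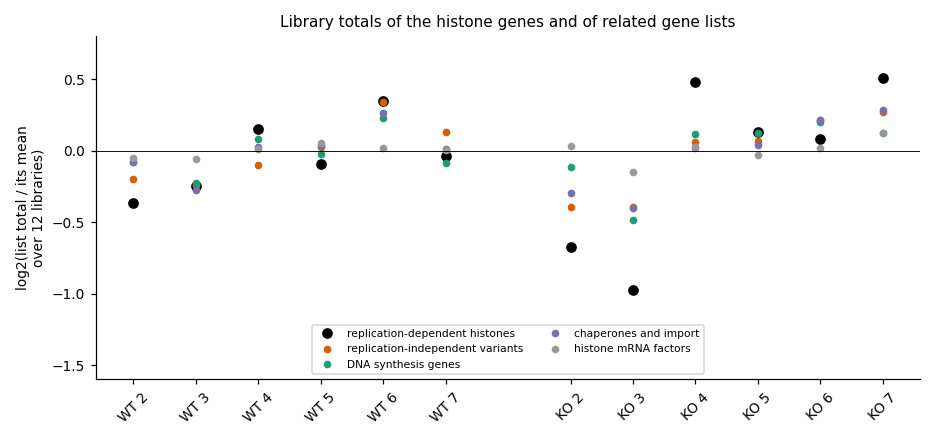
Log2 of the summed signal of each gene list divided by its own mean over the 12 libraries, by library (black, replication-dependent histones; colours, 4 related lists). The black points leave 0 furthest in KO 2, KO 3, KO 4 and KO 7, and the histone mRNA factors stay closest to 0.

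With both genotypes' libraries numbered 2 and 3 left out, an alternative chosen after the data were seen, 47 of 60 members were higher and 13 lower in KO, with a median of 0.17 (0.03 for all genes). The libraries left out were set apart by the histone share, and KO 3 and KO 2 had the lowest summed histone signal of all. A shift of the members towards higher in KO was therefore built into this choice, and these counts are only a description. In this fit 3.88% of all genes had an unadjusted limma p under 0.05 in either direction, and the share for higher alone is not given. Among the members 3 had such a p and were higher. They were Hist2h2aa1, with a log2 fold change of 0.76 (SE 0.33), Hist1h4b with 0.60 (SE 0.22) and Hist1h3g with 0.52 (SE 0.24), and limma gave each an adjusted p of 0.999. Hist1h4b was also below this threshold with KO 3 alone left out (0.53, limma adjusted p = 0.998). In that fit 4.31% of all genes were below it in either direction. Hist1h4b and Hist1h3g were named after their values were seen. Hist2h2aa1 has a near-identical copy, Hist2h2aa2, and the sum of the pair over all libraries is given below.

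Near-identical copies gave the 3 largest fold changes among the tested members, and their sums lay nearer to 0. Every 31-base word of the Hist2h2aa2 transcript also occurs in Hist2h2aa1, on the same chromosome. Hist2h2aa2 alone had a log2 fold change of -1.13 and Hist2h2aa1 of 0.33, and their sum 0.05. Hist2h2aa2 was at 8.88, 0, 126, 44.9, 138 and 137 in WT 2 to WT 7 and at 0, 0, 13.96, 62.8, 106 and 97.6 in KO 2 to KO 7, with the value of KO 2 rounding to 0. Its share of the pair ran from 0% to 56.2%, so libraries differed in how the pair was divided. Hist1h2bq (1.42) and Hist1h2br (-0.44) gave 0.04 when summed, and the share of Hist1h2br ran from 12.9% to 100%. Hist1h2ao (1.31), at 0 in 8 libraries, and Hist1h2ap (-0.18) gave 0.29 when summed, and the sum was 49.1 to 110 in WT and 64.9 to 208 in KO. Hist1h4m (-0.39) and Hist1h4n (0.22) gave -0.02 when summed. These copies were named after their values were seen. Over all members, 40 of 70 had over 50% of their 31-base words in another gene of the table, and only Hist1h1t shared none. How the estimate divided such reads between members was not tested.

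**Figure D4:**
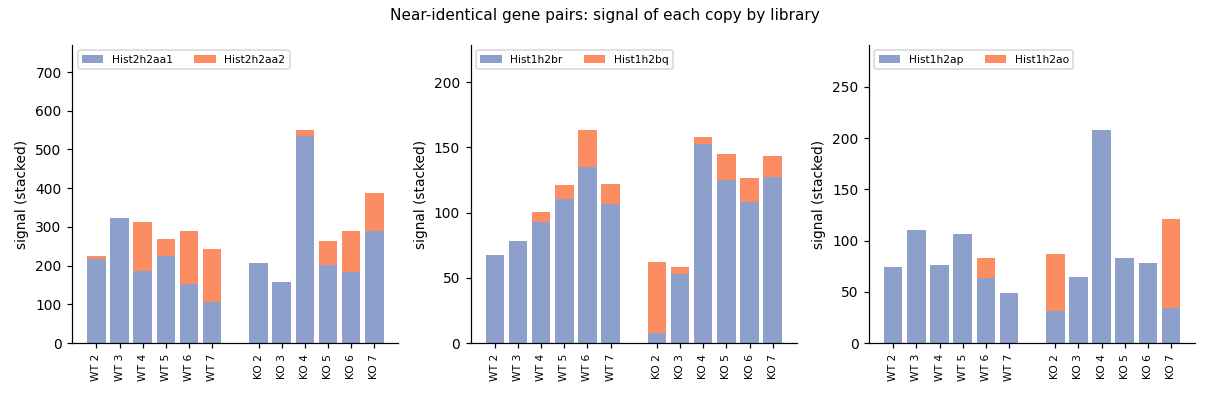
Signal (linear axis from 0) of the 2 copies of 3 near-identical gene pairs, stacked, in each of the 12 libraries. The division between blue and orange shifts between libraries of the same genotype, as in the first pair, where the orange share (Hist2h2aa2) ranges from 0% to 56.2%.

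Members were also grouped by their annotated 3′ end. Of the histone signal, 59.6% came from 23 genes annotated with over 100 bases after the stem-loop, 26.5% from 23 genes whose annotation ends within 100 bases of it, and 13.9% from 24 genes without an annotated stem-loop. The summed log2 differences were -0.05, -0.01 and -0.03, and KO 3 was the lowest library in all 3 groups. Transcripts that run past the stem-loop can be polyadenylated, and the libraries were made from enriched mRNA. Which of the 2 ends the sequenced molecules had is not known from a table of 1 value per gene. No tested gene of these groups had an unadjusted limma p under 0.05.

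Of 25 factors that act on histone mRNA, 21 were in the table and 17 were tested, with 7 higher and 10 lower in KO. One of the 17, Cpsf3, the endonuclease of histone pre-mRNA cleavage, passed an unadjusted p of 0.05 and was lower, where 1.98% of all genes tested were called higher and 1.69% lower. It was at 29.2, 37.9, 31.3, 25.2, 29.7 and 29.9 in WT 2 to WT 7 and at 36.6, 18.4, 23.2, 20.2, 21.5 and 16.2 in KO 2 to KO 7. All KO libraries but KO 2 lay below all WT libraries, and KO 2 lay above 5 of them. The log2 fold change was -0.45 (SE 0.20), limma p was 0.0366 and its adjusted p was 0.9996 (two-sided exact permutation p = 0.030). Limma p was 0.05 or more when WT 3, WT 4, WT 7, KO 3, KO 5, KO 6 or KO 7 was left out, with log2 fold changes of -0.46 to -0.37. The same held with libraries rescaled to the same total (-0.37), to the total without the 15 highest genes (-0.42) and without both WT 3 and KO 7 (-0.305). Slbp, which encodes the stem-loop binding protein, was at 82.8 to 112 in WT and 87.1 to 116 in KO (0.07), the smallest swing among the genes named here. Npat was at 52.4 to 80.9 and 54.1 to 80.6 (0.12), and Casp8ap2 (FLASH), a cleavage factor, at 26.2 to 61.4 and 19.9 to 43.6 (-0.34, exact permutation p = 0.184). Of the U7 snRNP proteins, Lsm11 was at 12.4 to 31.1 and 10.4 to 21.2 (-0.20), and Lsm10, below the filter, at 1.35 to 12.5 and 2.74 to 8.84.

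The replication-independent histones and related variants, most of which are made throughout the cell cycle from polyadenylated mRNAs, gave 9 tested genes of 11 listed. Of these 9, 3 were higher and 6 lower in KO. At an unadjusted limma p under 0.05 they gave 0, beside 1.98% called higher and 1.69% lower among all genes tested. H1f0, the linker histone of non-dividing cells, had the smallest p of the 9. It was at 38.5, 47.3, 48.4, 41.3, 60.2 and 38.9 in WT 2 to WT 7 and at 37.7, 30.1, 42.2, 39.2, 38.6 and 28.9 in KO 2 to KO 7. It was lower in KO in all 6 replicate numbers, although the ranges overlapped (log2 fold change -0.33, 95% interval -0.67 to 0.01, limma p = 0.0589, adjusted p = 0.9996, exact permutation p = 0.039). Limma p fell under 0.05 without WT 2, WT 7 or KO 4 (log2 fold changes of -0.38 to -0.37), with no filter (-0.33) and with quantile normalization (-0.35). With libraries rescaled to the same total the log2 fold change was -0.25 and limma p was further above 0.05. H3f3a and H3f3b, which both encode H3.3, had log2 fold changes of -0.10 and -0.02. H2afz and H2afx, which encode the variants H2A.Z and H2A.X, had 0.03 and 0.06. The H2afx gene can also give a stem-loop mRNA in S phase. H2afx was lowest in KO 3 (79.7) and highest in KO 4 (209).

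Of the 25 DNA synthesis genes, all of which were tested, 13 had a higher and 12 a lower mean log2 value in KO. At an unadjusted limma p under 0.05 they gave 0, beside 1.98% called higher and 1.69% lower among all genes tested. Pcna, the sliding clamp of DNA polymerase, was at 141 to 210 in WT and 124 to 195 in KO (log2 fold change -0.05, 95% interval -0.37 to 0.27). Mki67, which marks cycling cells, was at 447 to 901 and 488 to 1022 (0.11, 95% interval -0.31 to 0.53). The list sums were 3052 ± 336 in WT and 3102 ± 498 in KO. Among 23 genes of histone chaperones and nuclear import, 8 were higher and 15 lower in KO. They gave 0 at an unadjusted limma p under 0.05, beside the same 1.98% and 1.69% of all genes.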

How the data were processed

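RNA-seq of LSK cells from 6 WT and 6 Fancg KO mice was analysed, and the human data of the study were not used here. The authors deposited 1 table that holds a signal value for every gene in every library. It was taken to hold estimated counts scaled by a library factor, because the submitters' processing notes name kallisto and the values are not whole. The study's methods describe Kallisto with a human genome and Sleuth and do not say whether this holds for the mouse libraries, and a mouse build and annotation are not given in the sources used here. Values were neither whole reads (12.7% to 13.3% lay within 0.01 of a step) nor rescaled here. Every column was matched to a library by its label, and 0 were left unused. No 2 libraries had identical values. Counting error at this depth is part of the spread between libraries, and no test for counts was used.

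Genes whose signal averaged 10 or more were tested on log2(signal + 1) with limma 3.58.1 in R 4.3.3 (trend, two-sided, no covariate, Benjamini-Hochberg adjustment over 8887 genes). A fold change on this scale understates that of low genes. Named genes were also tested by exact permutation over all divisions of the 12 libraries (scipy 1.17.1). Sums over lists carry no test. The fit was tested on simulated data. All 35999 gene names were found in GENCODE M21, and 69 members were matched to 1 RefSeq gene.

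The members and lists were chosen with earlier results of these data known. Named members are the 3 of each class with the highest mean signal, with any member at an unadjusted p under 0.05 (none was found). Named related genes are 12 fixed genes and any listed gene at an unadjusted p under 0.05 (Cpsf3). Alternatives were other pseudocounts, filters and scalings, limma without trend, a replicate block, the fit without each library and that without both WT 3 and KO 7. Leaving out the libraries numbered 2 and 3 was added after the data were seen, and these libraries were set apart by the histone share itself.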

Additional observations from a re-analysis of the deposited data

Results flagged for a closer look

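In 4 of 68 groups of 6 libraries (each genotype for each named gene or total), the highest library stood further from the rest than Dixon's 95% critical value of 0.625 allows. Chance alone gives about 3.4 such groups of 68. Hist2h2aa1 was at 536 in KO 4, against 157 to 289 in the other KO libraries. Hist1h2bp was at 453 in WT 6, against 210 to 288 in the other WT libraries. Lsm11 was at 31.1 in WT 2, against 12.4 to 17.2 in the other WT libraries. Cpsf3 was at 36.6 in KO 2, against 16.2 to 23.2 in the other KO libraries.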

How the results depend on the processing

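No alternative brought a histone member to an adjusted limma p under 0.05. The count at an unadjusted p under 0.05 was 0 in both directions under the other pseudocounts, filters and scalings, without trend and without both WT 3 and KO 7. It was 3 higher without the libraries numbered 2 and 3, which were set apart by the histone share itself, and 1 lower with the replicate block. Leaving out single libraries gave 0 to 1 higher (Hist1h2bq without WT 6 and Hist1h4b without KO 3) and 0 lower. In either direction, 4.06% of all genes had such a p without WT 6 and 4.31% without KO 3. The share was 3.88% without the libraries numbered 2 and 3 and 5.36% with the replicate block. The log2 differences of the class totals moved by less than the spread between libraries under every alternative, including those from the summed signal without the highest member of a class. Without single libraries they ranged from -0.151 to 0.145 for all members.

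The replicate number is not said to mark a shared litter or day. Deviations of same-numbered libraries correlated at 0.086 to 0.362 (mean 0.196, against -0.039 for different numbers), with number 4 at 0.091 and number 7 at 0.086, and 9 of 12 libraries correlated best with their own number. With the replicate block, 1 histone member, Hist2h2aa2, had an unadjusted p under 0.05 (log2 fold change -1.13, limma adjusted p = 0.889), and 476 genes in all did, against 326 without it.

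Named genes with small fold changes changed sign under some alternatives. Rescaling libraries to the same total raised all genes alike (their median went from 0.003 to 0.082), which by construction moved small negative values above 0, and log2 fold changes were 0.048 for Hist1h1c, 0.065 for Hist1h1e, 0.039 for Hist1h2bg, 0.021 for Hist1h3f, 0.042 for Hist1h4j, 0.065 for H3f3b and 0.029 for Pcna. When that total left out the 15 highest genes, the median of all genes was 0.040 and they were 0.005 for Hist1h1c, 0.021 for Hist1h1e and 0.022 for H3f3b. Quantile normalization gave 0.003 for Hist1h2bg and 0.009 for H3f3b. Beyond these rescalings the cause was not tested. Without WT 3 and KO 7 the log2 fold changes were -0.083 for Hist1h1d, -0.218 for Hist1h2ae, -0.166 for Hist1h2bp, -0.137 for H2afz and -0.035 for Mki67, and 14 members were higher and 46 lower. Without the libraries numbered 2 and 3 they were 0.272 for Hist1h1c, 0.303 for Hist1h1e, 0.051 for Hist1h2ac, 0.202 for Hist1h2bg, 0.096 for Hist1h2bk, 0.143 for Hist1h3e, 0.222 for Hist2h3c2, 0.120 for Hist1h3f, 0.106 for Hist1h4d, 0.131 for Hist1h4c and 0.149 for Hist1h4j.

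Over the fits without 1 library, log2 fold changes ranged from -0.196 to 0.224 for Hist1h1c, -0.070 to 0.223 for Hist1h1d, -0.144 to 0.214 for Hist1h1e, -0.134 to 0.220 for Hist1h2ae, -0.278 to 0.253 for Hist1h2ac, -0.201 to 0.137 for Hist1h2bg, -0.228 to 0.043 for Hist1h2bk and -0.086 to 0.317 for Hist1h2bp. They ranged from -0.193 to 0.089 for Hist1h3e, -0.187 to 0.123 for Hist1h3f, -0.249 to 0.110 for Hist2h3c2, -0.225 to 0.061 for Hist1h4c, -0.250 to 0.024 for Hist1h4d and -0.159 to 0.118 for Hist1h4j. For the related genes they ranged from -0.092 to 0.184 for H2afx, -0.110 to 0.155 for H2afz, -0.139 to 0.120 for H3f3b, -0.108 to 0.031 for Pcna and -0.012 to 0.232 for Mki67. Hist2h2aa1 stayed above 0 (0.094 to 0.477). Over all 12 libraries, however, its sum with the near-identical copy Hist2h2aa2 had a log2 difference of 0.05. That sum was higher in KO in 2 of 6 replicate numbers.

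Depth limits single members more than sums. A whole library held about 6761 to 20791 histone reads, and 40 of 70 members share over 50% of their 31-base words with another gene.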
